A study of Mus musculus with 12 samples.

Results

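The BTG and TOB genes encode a small family of antiproliferative proteins. They were chosen by symbol, and all 5 members (Btg1, Btg2, Btg3, Tob1 and Tob2) were found among the 50559 rows of the count table. RNA was sequenced from macrophages that had been grown in culture from the bone marrow of C57BL/6 mice. The cells had been exposed for 1 h to allergen of house dust mite (HDM; 6 libraries) or to vehicle (6 libraries). No other genotype or agent is named in the labels. Libraries carry the numbers 1 to 6 in each group, and whether these are different mice or cultures is not stated, so the spread behind each p-value is that between libraries and may be technical.

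BTG and TOB proteins share an amino-terminal domain through which they bind CNOT7 and CNOT8, which are among the deadenylase subunits of the CCR4-NOT complex. CCR4-NOT shortens the poly(A) tails of mRNAs, and TOB proteins also bind the poly(A)-binding protein PABPC1, which brings the deadenylase to the tail. BTG1 and BTG2 bind the arginine methyltransferase PRMT1 and keep T cells quiescent in mice. BTG2 was first found as an immediate early gene (TIS21 or PC3) and as a target of p53. BTG3 binds the cell cycle factor E2F1, and TOB1 was named as a transducer of the receptor ErbB2.

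Total counts per library ran from 19.8 to 119.7 M with HDM and from 19.7 to 62.4 M with vehicle. Libraries numbered 5 and 6, of both treatments, stood apart from the other 8 on the first principal component, which held 42.2% of the variance, so results are also given by number. All 12 macrophage markers examined were present, and their summed level was 17289 to 22036 CPM (counts per M reads) with HDM and 17342 to 22569 CPM with vehicle. Of the other markers, those of stroma and endothelium summed to 37.5 to 38.2 CPM with HDM and 34.3 to 40.9 CPM with vehicle in numbers 5 and 6, and to 14.4 to 16.3 CPM with HDM and 13.1 to 16.7 CPM with vehicle in numbers 1 to 4. Most of that signal was Kdr, and 4 of the 8 genes of this list stayed below 1 CPM in every library. The collagen gene Col1a1 averaged 0.449 CPM with HDM and 1.11 CPM with vehicle, and Col1a2 0.467 CPM with HDM and 0.931 CPM with vehicle. Neither passed edgeR's test (adjusted p = 0.342 and 0.575), and both fell in the fit with the library number as a block (adjusted p = 0.00141 and 0.0485). Lymphocyte markers, of interest because BTG1 and BTG2 are abundant in resting lymphocytes, summed to 2.00 to 4.87 CPM with HDM and 1.77 to 5.42 CPM with vehicle, and 9 of their 10 genes stayed below 1 CPM in every library. Markers of dendritic cells summed to 0.431 to 1.46 CPM with HDM and 0.457 to 0.963 CPM with vehicle. Those of neutrophils and precursors summed to 4.07 to 6.39 CPM with HDM and 3.62 to 6.82 CPM with vehicle. Those of mast cells and basophils summed to 0.461 to 1.46 CPM with HDM and 0.265 to 1.12 CPM with vehicle, with Mcpt8, Fcer1a and Ms4a2 at 0. The part of these cells in the results was not tested. In bulk RNA, fewer cells of a type and less RNA per cell cannot be told apart.

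The bases before the annotated start site are shown for Btg2 and Btg1, the well-measured members with the largest log2 values upward, and for Tob2, whose value was downward. The sequences and positions are those of RefSeq in GRCm38.p6, while the build behind the counts is not settled by the sources used here. Each window holds the 250 bases before the start site, 5′ to 3′ on the gene's strand. Capitals mark the cAMP response element (CRE) TGACGTCA, or its core TGACG or the reverse complement CGTCA. These windows lie at chr1:134079156-134079405 (minus strand) for Btg2, chr10:96616751-96617000 (plus strand) for Btg1 and chr15:81858327-81858576 (minus strand) for Tob2.
Btg2: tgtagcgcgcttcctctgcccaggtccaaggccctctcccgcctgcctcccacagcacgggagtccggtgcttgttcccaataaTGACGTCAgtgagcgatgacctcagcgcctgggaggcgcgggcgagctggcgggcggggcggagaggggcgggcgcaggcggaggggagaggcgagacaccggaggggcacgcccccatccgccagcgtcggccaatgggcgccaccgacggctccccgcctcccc
Btg1: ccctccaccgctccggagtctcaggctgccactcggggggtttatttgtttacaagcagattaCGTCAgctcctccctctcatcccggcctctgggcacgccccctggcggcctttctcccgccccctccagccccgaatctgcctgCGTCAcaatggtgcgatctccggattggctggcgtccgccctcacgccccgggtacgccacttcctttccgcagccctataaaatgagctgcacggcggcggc
Tob2: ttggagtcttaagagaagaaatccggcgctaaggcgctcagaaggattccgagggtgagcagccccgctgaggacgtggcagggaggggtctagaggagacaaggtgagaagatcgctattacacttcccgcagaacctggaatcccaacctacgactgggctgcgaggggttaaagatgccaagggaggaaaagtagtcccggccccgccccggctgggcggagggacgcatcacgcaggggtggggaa

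The Btg2 window held a full CRE at position -166, a motif found on either strand in 1.55% of 32851 promoter windows of this length. The Btg1 window held the 5-base core 2 times, at -187 and -103, and a forkhead site (GTAAACA) at -204. The core alone occurred in 17.8% of windows and the forkhead site in 3.17%. The full CRE contains the core on both strands. The Tob1 window held the core once, and neither the Tob2 window nor the 2 annotated Btg3 windows held it. The AP-1 site TGANTCA, the STAT site TTCNNNGAA and the CArG box, by these letters, were in none of the 6 windows, and a match to the NF-kB motif was in 1 Btg3 window only. These are matches of letters and not shown to be bound sites.

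**Figure D1:**
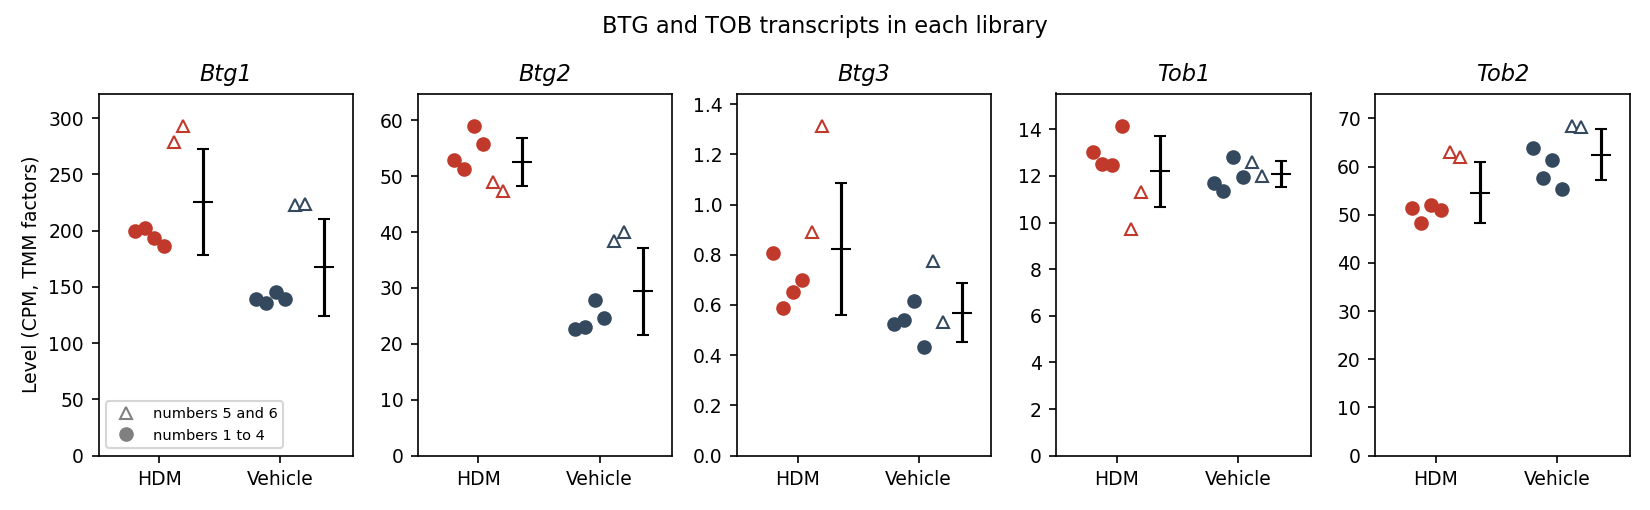
Level of each BTG and TOB transcript (y axis, CPM with TMM factors, from 0) in the 6 HDM and the 6 vehicle libraries. Filled circles are numbers 1 to 4, open triangles are numbers 5 and 6, and bars give mean ± SD (n = 6). The HDM and vehicle libraries do not overlap for Btg2. They overlap for the other 4 genes, and for Btg1 the vehicle libraries 5 and 6 lie above all HDM libraries numbered 1 to 4.

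Btg2, the inducible member of the family, rose with HDM. Its level was 47.3, 52.0 and 58.9 CPM (lowest, median and highest of 6) in HDM libraries, against 22.7, 26.1 and 39.9 CPM in vehicle libraries. The groups did not overlap, which held upward for 2.32% and downward for 2.07% of all tested genes. The 6 HDM libraries averaged 52.5 ± 4.33 CPM (SD) and the 6 vehicle libraries 29.4 ± 7.79 CPM, a log2 fold change of 0.84 ± 0.14 (SE), or 1.79-fold (edgeR's quasi-likelihood test, adjusted p = 0.0029). It ranked 134 of the 393 genes that rose. Of the 5 members 1 was called, and over all tested genes the share called was 5.37% (2.9% up and 2.47% down). The call held without any single library (adjusted p 0.000502 to 0.00951), but not when the counts of neighbouring numbers (1 and 2, 3 and 4, 5 and 6) were summed to give 3 samples per group (log2 fold change 0.83, adjusted p = 0.224).

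The size of the Btg2 change differed between sets of libraries. HDM libraries exceeded the vehicle library of the same number by 1.28-fold in number 5 and 1.18-fold in number 6, and by 2.12- to 2.32-fold in numbers 1 to 4. The difference lay more in the vehicle libraries: Btg2 was at 38.3 and 39.9 CPM in vehicle 5 and 6, against 22.7 to 27.8 CPM in vehicle 1 to 4. With HDM the level was 48.9 and 47.3 CPM in the libraries numbered 5 and 6, against 51.3 to 58.9 CPM in the other 4. Fitted separately, the log2 fold change was 0.30 ± 0.05 (SE, adjusted p = 4.87e-05) in numbers 5 and 6 and 1.16 ± 0.06 (adjusted p = 5.47e-08) in numbers 1 to 4. Those fits called 1139 of 13449 and 1076 of 13650 genes. Whether the few libraries numbered 5 and 6 are independent is not stated. In a single edgeR fit the effect in numbers 5 and 6 minus that in numbers 1 to 4 was -0.86 ± 0.10 (95% interval -1.08 to -0.65, adjusted p = 0.00103). Such a difference was called for 11 of 13530 genes (0.0813%), and Btg2 was the only member among them. The plot of effects in both sets of libraries shows these 11 genes and the other 4 members. Several cell type markers moved with the same split, and others did not. Adgre1, the gene of the macrophage antigen F4/80, was at 1433 and 1397 CPM with HDM and 1436 and 1429 CPM with vehicle in numbers 5 and 6. In numbers 1 to 4 Adgre1 was at 2488 to 2727 CPM with HDM and 2688 to 2834 CPM with vehicle. Cd68, another macrophage marker, was higher in numbers 5 and 6 (1709 and 1720 CPM with HDM, 1736 and 1738 CPM with vehicle) than in numbers 1 to 4 (1325 to 1413 CPM with HDM, 1345 to 1458 CPM with vehicle). The stromal and endothelial sum given above was also higher in numbers 5 and 6. So was the mast cell and basophil sum (1.33 to 1.46 CPM with HDM and 1.12 CPM with vehicle in numbers 5 and 6, against 0.461 to 0.911 CPM with HDM and 0.265 to 0.468 CPM with vehicle in numbers 1 to 4). The lymphocyte sum was lower there (2.00 to 2.13 CPM with HDM and 1.77 to 2.13 CPM with vehicle in numbers 5 and 6, against 3.47 to 4.87 CPM with HDM and 4.21 to 5.42 CPM with vehicle in numbers 1 to 4). The macrophage marker Csf1r did not follow the split. It was at 1530 and 1495 CPM with HDM and 1527 and 1550 CPM with vehicle in numbers 5 and 6. In numbers 1 to 4 Csf1r was at 1454 to 1497 CPM with HDM and 1471 to 1580 CPM with vehicle. The sums of neutrophil and precursor markers in both sets overlapped in each treatment. The part of these markers in the Btg2 difference was not tested.

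**Figure D2:**
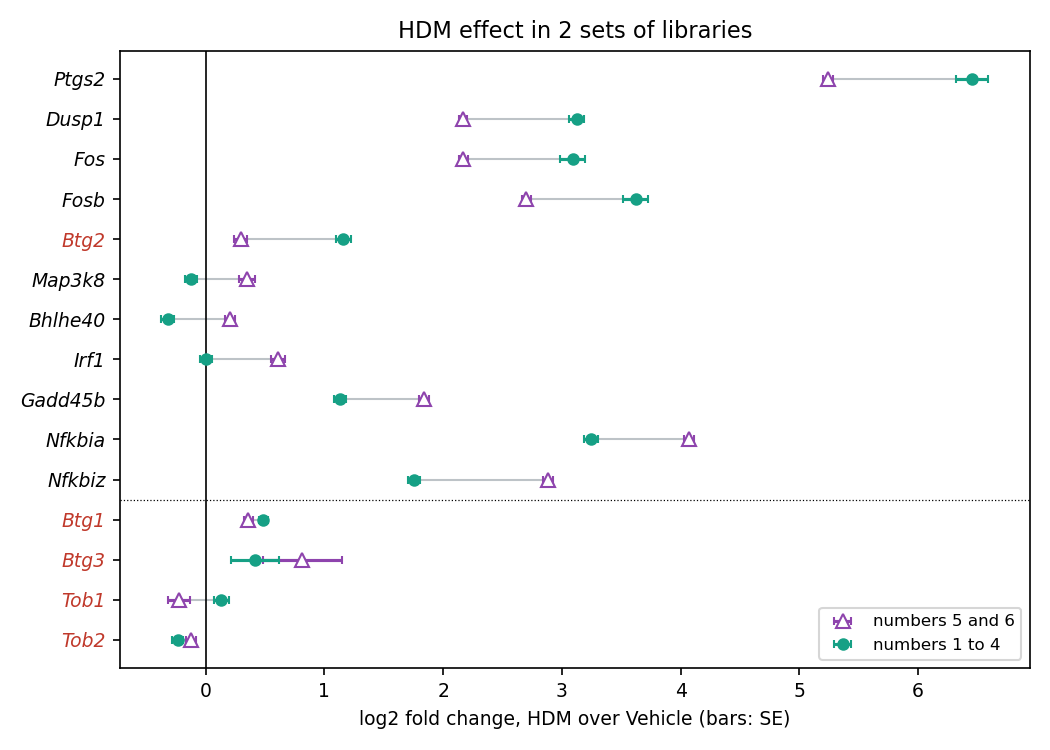
Log2 fold change, HDM over vehicle (x axis, bars are SE), fitted separately in numbers 5 and 6 (open triangles) and in numbers 1 to 4 (filled circles). Above the dotted line are the 11 genes whose effect differed between the sets, and below it the members for which it did not pass the test. Btg2 is at 0.30 in numbers 5 and 6 and 1.16 in numbers 1 to 4.

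Btg1, the most abundant member, had a higher mean with HDM in both sets of libraries. It was at 186, 201 and 293 CPM (lowest, median and highest) in HDM libraries, against 135, 142 and 224 CPM in vehicle libraries, and the groups overlapped. The overlap came with the numbers: Btg1 was at 279 and 293 CPM with HDM and 222 and 224 CPM with vehicle in numbers 5 and 6. In numbers 1 to 4 it was at 186 to 202 CPM with HDM and 135 to 146 CPM with vehicle. The 6 HDM libraries averaged 225 ± 47.2 CPM (SD) and the 6 vehicle libraries 168 ± 43.1 CPM, a log2 fold change of 0.43 ± 0.17 (SE) that did not pass the edgeR test (adjusted p = 0.225). Against the vehicle library of the same number, Btg1 was higher with HDM in 6 of 6 numbers, by 1.25- to 1.49-fold. A difference upward in all 6 numbers occurred in 8.98% of tested genes. With the replicate number as a block, Btg1 rose (log2 fold change 0.44 ± 0.03, adjusted p = 9.02e-09), in a fit that called 14.7% of all genes (7.9% up and 6.81% down). The rise was called in numbers 5 and 6 alone (0.36 ± 0.04, adjusted p = 1.33e-10) and in numbers 1 to 4 alone (0.49 ± 0.04, adjusted p = 1.27e-06). Those fits called 1139 of 13449 and 1076 of 13650 genes. The first rests on 2 libraries per group, and whether these are independent is not stated. The Btg1 effects in the 2 sets were not called different (-0.13 ± 0.06, 95% interval -0.25 to -0.01, adjusted p = 0.816).

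**Figure D3:**
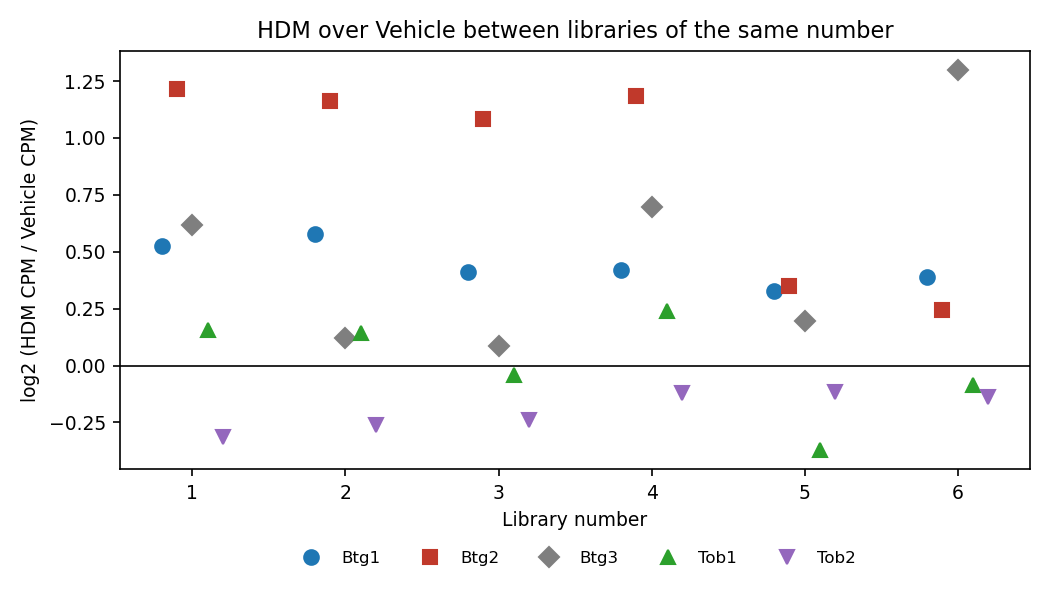
Log2 ratio of the HDM to the vehicle library of the same number (y axis) for each library number (x axis) and member. Btg1, Btg2 and Btg3 lie above 0 and Tob2 below 0 in all 6 numbers, while Tob1 lies on both sides. Btg2 is at 1.09 to 1.22 in numbers 1 to 4 and at 0.35 and 0.24 in numbers 5 and 6.

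Tob2 had a lower mean level in HDM libraries, the opposite direction to Btg1 and Btg2. It was at 48.2, 51.6 and 63.0 CPM (lowest, median and highest) in HDM libraries, against 55.5, 62.6 and 68.3 CPM in vehicle libraries. The groups overlapped, with the HDM libraries numbered 5 and 6 (63.0 and 62.1 CPM) inside the vehicle range. The log2 fold change of -0.19 ± 0.08 (SE) did not pass the edgeR test (adjusted p = 0.232). Tob2 was lower with HDM in 6 of 6 numbers, to between 0.805 and 0.921 of the vehicle library, and all 6 numbers pointed down for 8.95% of tested genes. With the replicate number as a block Tob2 fell (-0.20 ± 0.03, adjusted p = 0.000192).

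Tob1, its close relative, showed no difference that passed the test. Its level was 9.72, 12.5 and 14.1 CPM in HDM libraries, against 11.3, 11.98 and 12.8 CPM in vehicle libraries, so the vehicle range lay inside the HDM range. The log2 fold change was 0.02 ± 0.08 (SE, 95% interval -0.15 to 0.18, adjusted p = 1.00 by edgeR, 0.823 with the replicate number as a block). Tob1 was higher with HDM in 3 of the 6 numbers and lower in 3, and its direction turned with the scaling by total library size. The 2 lowest HDM libraries were numbers 5 and 6, at 9.72 and 11.3 CPM, with the other 4 at 12.5 to 14.1 CPM. The effect in numbers 5 and 6 minus that in numbers 1 to 4 was -0.35 ± 0.11, not called over all genes (adjusted p = 0.792).

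Btg3 was close to the limit of detection, with 13 to 97 reads per library in the HDM group and 15 to 34 in the vehicle group. It was at 0.586, 0.752 and 1.31 CPM in HDM libraries, against 0.431, 0.535 and 0.777 CPM in vehicle libraries, and the groups overlapped. The highest value was that of HDM number 6. The log2 fold change of 0.56 ± 0.21 (SE, 95% interval 0.12 to 1.01) did not pass the edgeR test, either without the block (adjusted p = 0.179) or with it (adjusted p = 0.0847). Btg3 was higher with HDM in 6 of 6 numbers, as were 8.98% of tested genes. In numbers 2 and 3 its log2 ratio was 0.12 and 0.09, at 13 to 34 reads per library. The other 3 family rows had no reads among 553.8 M: the oocyte gene Btg4 and the Btg1-like Btg1b and Btg1c, which limits each to 0.00542 reads per M (3 counts over all libraries). How the counting treated reads shared by Btg1 and such copies is unknown here, so the Btg1 level carries that uncertainty.

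**Figure D4:**
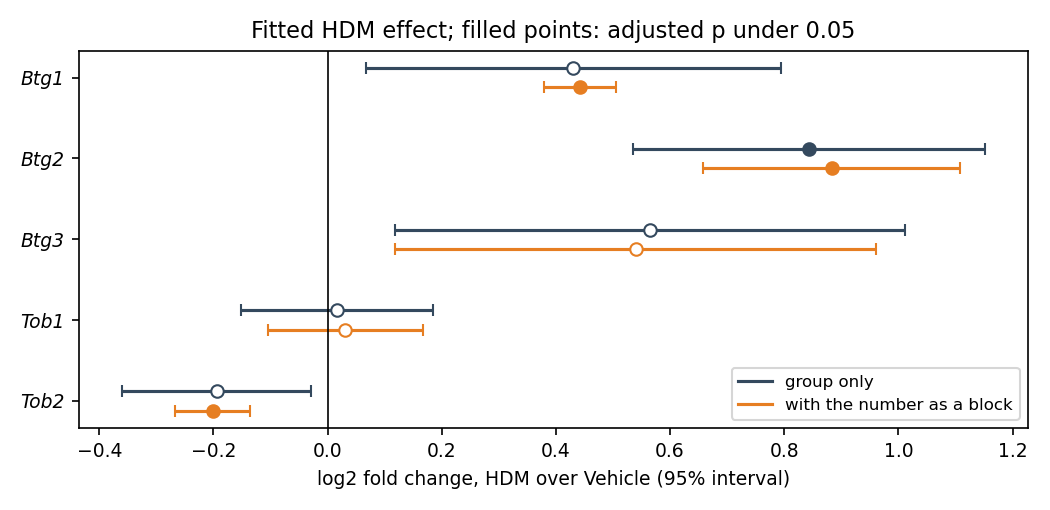
Fitted log2 fold change, HDM over vehicle (x axis, with 95% interval), for each member, with group as the only term and with the library number as a block. Filled points have an adjusted p under 0.05 over 13530 genes. Btg2 is called in both fits, and Btg1 (0.43 and 0.44) and Tob2 (-0.19 and -0.20) keep their values but are called only with the block, where their intervals are narrower.

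The members therefore did not move as a unit, which was examined with ratios of 2 members' reads in the same library, a measure that does not depend on the scaling between libraries. Of the 10 pairs, 4 differed between treatments by an exact two-sided permutation test over libraries. These were Btg2 over Tob1, Btg2 over Tob2, Btg1 over Tob2 and Btg3 over Tob2, each at an exact permutation p of 0.00216, the smallest that 6 against 6 libraries can give, and 0.00541 adjusted over the 10 pairs. The log2 ratio of Btg2 to Tob2 was -0.05 ± 0.26 (SD) in the 6 HDM libraries and -1.12 ± 0.28 in the 6 vehicle libraries, a difference of 1.07. That of Btg1 to Tob2 was 2.03 ± 0.15 with HDM and 1.39 ± 0.25 with vehicle, a difference of 0.64. For Btg2 over Btg1 the difference was 0.43, with the ratio at -2.08 ± 0.39 with HDM and -2.51 ± 0.08 with vehicle (exact permutation p = 0.0498, adjusted 0.0974). Without numbers 5 and 6 that difference was 0.68 (exact permutation p adjusted over the pairs 0.0357). Btg2 over Btg3 (0.78), Btg1 over Tob1 (0.36) and Tob1 over Tob2 (0.36) also passed there, each at the same adjusted p. With 4 against 4 libraries few assignments exist, so these equal values do not rank the pairs. Taken within numbers, an exact sign-flip test reaches no p below 0.0312, and 0 pairs passed after adjustment.

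Per kb of each gene's longest protein-coding transcript in GENCODE M21, the level with HDM ran in the order Btg1 (45.1 ± 9.43 CPM per kb), Btg2 (19.1 ± 1.58), Tob2 (13.2 ± 1.51), Tob1 (5.33 ± 0.661) and Btg3 (0.274 ± 0.087, SD, n = 6 each). With vehicle it was Btg1 (33.5 ± 8.63 CPM per kb), Tob2 (15.1 ± 1.29), Btg2 (10.7 ± 2.84), Tob1 (5.28 ± 0.241) and Btg3 (0.189 ± 0.0388). Btg2 and Tob2 thus changed places. Their ranges were apart with HDM (17.2 to 21.5 and 11.6 to 15.2 CPM per kb) and overlapped with vehicle (8.29 to 14.6 and 13.4 to 16.5 CPM per kb). The other neighbours in each order did not overlap. The annotation used for the counting is not given, so the lengths are approximate. In the longest annotated 3′ UTR of each gene, the AU-rich heptamer TATTTAT occurred 1 time in Btg2 and in Tob2 and in none of the other 3. It was present in 29.9% of 11676 tested genes with a 3′ UTR. Among genes with a 3′ UTR of similar length (the shorter at least 0.8 of the longer) the share was 40.8% for Btg2 and 44.7% for Tob2.

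The genes whose profile over the 12 libraries lay nearest to each member were found by the root mean square difference of centred log2 CPM, among 10789 candidates (10790 for Btg3). Nearest to Btg2 were Osm, the gene of the cytokine oncostatin M (0.13), Pim1, a cytokine-induced kinase gene (0.197), and Junb, an AP-1 factor gene (0.198), against a median of 0.516. All of them rose, Osm by 0.79 ± 0.12 (SE, log2, adjusted p = 0.00133), Pim1 by 0.84 ± 0.12 (adjusted p = 0.000858) and Junb by 0.72 ± 0.15 (adjusted p = 0.00981). These calls too ended with neighbouring numbers summed (adjusted p = 0.159 for Osm, 0.142 for Pim1 and 0.319 for Junb). Nearest to Btg1 were Rgs2, a regulator of G-protein signalling (0.0822), Arl10 (0.0853) and Rusc2 (0.0891), against a median of 0.378. Tob2 lay nearest to Tspyl2 (0.0577), Sap30 (0.0626) and Cd300lb (0.0644, median 0.191), and Tob1 to Zswim3 (0.0703), Guf1 (0.0737) and Pank1 (0.0739, median 0.169). Btg3 lay nearest to Osgin2 (0.18), Cdkn1b (0.181) and Ugcg (0.191, median 0.374). The points share libraries and depth, and likeness here includes the split between numbers 5 and 6 and the rest. It also includes the difference between HDM and vehicle. Genes nearest to Btg2 were thus chosen in part for its rise, so their own rises and adjusted p add no separate evidence.

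The family's partners in mRNA decay were examined next. Of the 12 subunits of CCR4-NOT edgeR called 0, although 3 had an unadjusted p under 0.05. DESeq2 and limma-voom also called 0, and the fit with the replicate number as a block called 2. Over all genes the shares called were 5.37% and, with the block, 14.7%, so counts this small in 12 genes are near the background. The subunits that BTG and TOB proteins bind were among the uncalled: Cnot7 was at 33.8 ± 1.78 CPM with HDM and 32.4 ± 2.20 CPM with vehicle (log2 fold change 0.06 ± 0.05 SE, adjusted p = 0.766) and Cnot8 at 49.0 ± 1.32 CPM with HDM and 46.5 ± 0.858 CPM with vehicle (0.07 ± 0.03, adjusted p = 0.186). The 2 called with the block were the deadenylase genes Cnot6 (0.08 ± 0.03, adjusted p = 0.247, and 0.0441 with the block) and Cnot6l (0.10 ± 0.04, adjusted p = 0.239, and 0.0191 with the block). The median log2 change of the complex was 0.03, against -0.005 over all tested genes.

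Of 18 other genes of poly(A) tail metabolism, 2 rose and 1 fell, or 16.7% against 5.37% over all genes, with a median log2 change of 0.01. Noct, the gene of the deadenylase-like protein nocturnin, rose to 30.8 ± 3.22 CPM with HDM, against 23.5 ± 1.95 CPM with vehicle (log2 fold change 0.39 ± 0.07 SE, adjusted p = 0.00637). Tent4a, which encodes a poly(A) polymerase that extends tails, rose by 0.29 ± 0.05 (adjusted p = 0.00313). Tent5c, the gene of another poly(A) polymerase, fell to 25.7 ± 4.39 CPM with HDM, against 40.6 ± 7.29 CPM with vehicle (-0.66 ± 0.13, adjusted p = 0.00787). These 3 calls ended with neighbouring numbers summed (adjusted p = 0.287 for Noct, 0.127 for Tent4a and 0.309 for Tent5c), and that of Tent4a also in numbers 5 and 6 only (adjusted p = 0.0745). Pabpc1, the gene of the poly(A)-binding protein that TOB proteins bind, was at -0.05 ± 0.05 (adjusted p = 0.868).

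Of 14 tested genes of other proteins reported to bind BTG or TOB proteins, 1 rose and 0 fell by edgeR (unadjusted, 4 had p under 0.05, all upward, while DESeq2 called 3 and limma-voom 1), with a median log2 change of 0.03. It was Cpeb2, which encodes an mRNA-binding protein of the CPEB family, at 93.7 ± 5.60 CPM with HDM and 62.8 ± 3.74 CPM with vehicle (0.58 ± 0.05 SE, adjusted p = 5.54e-06). Its relative Cpeb4 (0.34 ± 0.11, adjusted p = 0.115) and the inhibitory Smad gene Smad6 (0.34 ± 0.11, adjusted p = 0.102) passed only with the block (adjusted p = 4.41e-07 and 0.00762). With the block 4 of the 14 rose, where 7.9% of all genes did, and the 1 of 14 without it (7.14%) stands beside 2.9% of all genes. Prmt1 was at -0.09 ± 0.06 (adjusted p = 0.675).

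Among 24 genes of the G1 to S phase transition, which the family is known to restrain, 2 rose and 0 fell by edgeR (unadjusted, 2 had p under 0.05, DESeq2 and limma-voom called 2 each, and 4 rose with the block), with a median log2 change of 0.04. These shares, 8.33% and, with the block, 16.7%, stand beside 5.37% and 14.7% over all genes. Both encode inhibitors of cyclin-dependent kinases: Cdkn1a (p21) was at 535 ± 16.9 CPM with HDM and 387 ± 18.3 CPM with vehicle (0.47 ± 0.04 SE, adjusted p = 3.32e-06), and Cdkn1b (p27) at 17.4 ± 2.18 CPM with HDM and 12.6 ± 1.41 CPM with vehicle (0.47 ± 0.09, adjusted p = 0.00799). The Cdkn1b call ended with neighbouring numbers summed (adjusted p = 0.19). E2f3 was at 0.07 ± 0.04 (adjusted p = 0.405).

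Lists that hold known regulators' targets were set beside the members they are linked to. Of 19 tested p53 target genes, the class that Btg2 belongs to, 6 rose and 2 fell, with a median log2 change of 0.04. Mdm2, which encodes the ubiquitin ligase that degrades p53, rose by 0.45 ± 0.03 (SE, adjusted p = 9.68e-07), Pmaip1, the gene of the pro-apoptotic protein NOXA, by 0.78 ± 0.07 (adjusted p = 5.41e-06) and the kinase gene Plk3 by 1.36 ± 0.07 (adjusted p = 7.19e-08). Bbc3, the gene of the pro-apoptotic protein PUMA, fell by 1.30 ± 0.08 (adjusted p = 3.19e-07), and Gadd45a fell too (-0.74 ± 0.14, adjusted p = 0.00777). The class thus changed in both directions. The other rises were Plk2 (1.16 ± 0.14, adjusted p = 0.00016), Tnfrsf10b (0.35 ± 0.07, adjusted p = 0.00825) and Cdkn1a, which also counts in the G1 to S list above. The Plk2 call ended under 1 of 25 alternatives (adjusted p = 0.0768). Of 15 tested genes linked to FoxO factors, which are known to induce BTG1 in erythroid cells, 4 rose and 1 fell, with a median of 0.08. Cited2, the gene of a transcriptional coregulator, rose by 1.28 ± 0.12 (adjusted p = 2.29e-05), and Txnip, which encodes a thioredoxin inhibitor, fell by 1.04 ± 0.11 (adjusted p = 6.76e-05). The Txnip call ended with neighbouring numbers summed (adjusted p = 0.0517). The shares called were 42.1% of the p53 list and 33.3% of the FoxO list, against 5.37% of all genes. With the block 6 rose and 3 fell in each list, in a fit that called 14.7% of all genes.

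Of 23 tested early response genes, the class in which Btg2 was first described, 19 rose and 0 fell by edgeR. The share called was 82.6%, against 5.37% of all tested genes. With the block 20 rose and 1 fell, or 91.3%, in a fit that called 14.7% of all genes. At an unadjusted p under 0.05 edgeR had 1 lower, and DESeq2 called 20 in either direction. The median log2 change of that list was 1.20. The change of Btg2, at 0.84, was close to that of Klf6 (0.85 ± 0.05 SE, adjusted p = 1.27e-07) and smaller in value than those of Ier2 (1.14 ± 0.07, adjusted p = 1.62e-07) and Myc (1.38 ± 0.09, adjusted p = 3.75e-07). Larger still were those of Zfp36 (2.63 ± 0.13, adjusted p = 3.53e-08), Nr4a1 (3.19 ± 0.21, adjusted p = 4.78e-07) and Ier3 (3.65 ± 0.20, adjusted p = 1.27e-07). These genes were named for having the smallest p of the list. Smaller in value than Btg2, and also called, were Jun (0.75 ± 0.05, adjusted p = 6.92e-07), Junb (0.72 ± 0.15, adjusted p = 0.00981), Ier5 (0.33 ± 0.05, adjusted p = 0.000859) and Atf3 (0.22 ± 0.05, adjusted p = 0.0147). Every other called gene of the list had a larger value than Btg2, and the uncalled genes had smaller ones. These differences between genes were not tested.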

How the data were processed

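Per the labels' protocols, the kit selected poly(A) RNA and kept strand. The authors deposited unscaled read counts by gene symbol for 12 libraries. STAR 2.6.0c and featureCounts 2.0.6 are named in the submitters' processing notes, beside cutadapt 4.5 and Trim Galore 0.6.10. GRCm38 and mm39 are both named there, with no role given to either. Strand setting, annotation and the handling of shared reads: not given in the sources used here.

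Counts were tested with edgeR 4.0.16 (R 4.3.3, quasi-likelihood F test, two-sided, TMM factors, filterByExpr, group as the only term). This left 13530 of 27925 genes with at least 1 read, all 5 members included. P-values were adjusted by Benjamini-Hochberg over all tested genes and called under 0.05. Standard errors were derived from the F statistic (absolute log2 fold change over its root). Levels are in CPM with TMM factors (marker sums without them). Within-library ratios used 0.5 added to each count, and profiles 0.1 added to CPM. Limma 3.58.1 (voom), DESeq2 1.42.0 and other settings were alternatives. The fits were tested on simulated counts.

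Whether equal numbers pair the libraries is not stated in the labels, so the block was an alternative to the main fit. Deviations from the group means correlated in every same-number pair (0.467, 0.367, 0.387, 0.479, 0.624 and 0.672, bound 0.1). Unequal numbers passed that bound too, within 1 to 4 (0.190 to 0.511) and within 5 and 6 (0.608 and 0.704). The bound thus cannot show pairing. The vehicle library of the same number correlated highest only for HDM 2 and HDM 6. An unequal number did so for the others (HDM 1 with vehicle 2 0.511, HDM 3 with vehicle 4 0.413, HDM 4 with vehicle 3 0.483, HDM 5 with vehicle 6 0.704). The values therefore do not separate pairing by equal number from sets of neighbouring numbers. Fits with the number as a block are therefore given where they change a call. Named are the 5 members, up to 6 called genes per list (up to 3 genes where fewer are called, some left out of the text) and the 3 nearest profiles per member with a mean of at least 1 CPM and a descriptive symbol. Cnot7, Pabpc1 and Prmt1 were added as known partners, after their values were seen. Jun, Ier5, Atf3, Gadd45a and Tnfrsf10b were added as other called genes of their lists, also after their values were seen. The members, lists and tests were chosen with earlier results of these data known. Promoter windows are from RefSeq (all 5 members matched by symbol), transcript lengths and UTRs from GENCODE M21.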

Additional observations from a re-analysis of the deposited data

Results flagged for a closer look

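The HDM effect on Btg2 differed between libraries numbered 5 and 6 and those numbered 1 to 4, by -0.86 on the log2 scale (edgeR interaction, adjusted p = 0.00103, and 5.91e-07 with the replicate number as a block). Such a difference was called for 11 of 13530 genes (0.0813%) without the block and for 64 (0.473%) with it. Of the 11 genes called without the block, 5 had the lower log2 fold change in numbers 5 and 6. Beside Btg2 these were Ptgs2, Dusp1, Fos and Fosb, named after their values were seen. All 5 had a higher mean in the vehicle libraries numbered 5 and 6 than in those numbered 1 to 4. A lower ratio of HDM to vehicle favours a higher vehicle mean, so this is in part built into the choice of these genes. Fos was at 156 CPM in vehicle 5 and 6 and 70.2 CPM in vehicle 1 to 4, and Dusp1 at 223 CPM in vehicle 5 and 6 and 91.5 CPM in vehicle 1 to 4. With HDM, 4 of the 5 were also higher in numbers 5 and 6, and Btg2 was the exception (48.1 CPM in numbers 5 and 6 and 54.7 CPM in numbers 1 to 4). The other 6 genes (Nfkbiz, Nfkbia, Gadd45b, Irf1, Bhlhe40 and Map3k8) had the higher log2 fold change in numbers 5 and 6. Of these 6, 2 (Bhlhe40 and Map3k8) had a higher vehicle mean in numbers 5 and 6. For Bhlhe40 the sign differed, at 0.21 in numbers 5 and 6 and -0.32 in numbers 1 to 4, and likewise for Map3k8, at 0.35 in numbers 5 and 6 and -0.12 in numbers 1 to 4 (the last of these not called, adjusted p = 0.216). The number set was defined from these data, and what separates numbers 5 and 6 is not given in the labels.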

How the results depend on the processing

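Btg2 kept its direction under all 25 alternatives and its call under 24, with a log2 fold change of 0.30 to 1.16 (0.78 to 0.96 leaving out 1 library). The call ended with neighbouring numbers summed (0.83, adjusted p = 0.224), where 0 members rose. With the replicate block, a term for numbers 5 and 6, numbers 5 and 6 left out, or numbers 5 and 6 only, Btg1 was called as well (0.44, 0.44, 0.49 and 0.36), so that 2 members rose. Tob2 was called as lower with the block, the term and numbers 5 and 6 left out (-0.20, -0.20 and -0.23), so that 1 member fell. The Tob1 log2 fold change, uncalled throughout, turned negative with numbers 5 and 6 only (-0.22), with total library size (-0.00113) and in some fits without 1 library (-0.0233 to 0.075). Over the 7 gene lists 32 genes rose, against 18 with neighbouring numbers summed, and 4 fell, against 8 with the block, 8 with the term and 1 with neighbouring numbers summed. The Btg2 to Btg1 ratio passed without numbers 5 and 6 (0.68, adjusted exact permutation p 0.0357), and leaving out 1 library gave 0.36 to 0.54, passing without HDM 5 or HDM 6. Btg2 over Btg3 (0.78), Btg1 over Tob1 (0.36) and Tob1 over Tob2 (0.36) also passed without numbers 5 and 6, Btg2 over Btg3 without HDM 6 (adjusted exact permutation p 0.0361) and Tob1 over Tob2 without HDM 5 (0.0469). Btg1 over Btg3 turned positive without numbers 5 and 6 (0.10) and lay between -0.114 and 0.0513 leaving out 1 library. Among the nearest profiles Zswim3 turned to 0.0363 and Guf1 to 0.032 without numbers 5 and 6, Pank1 to -0.0774 with these alone, and without 1 library Guf1 ranged from -0.0324 to 0.0217 and Pank1 from -0.00199 to 0.079. The cause of these changes was not tested. Over all genes 727 were called, against 1990 with the block, 1651 with the term, 1139 with numbers 5 and 6 only and 119 with neighbouring numbers summed. Read depth limits Btg3 most.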
